A study of Mus musculus with 40 samples.

Results

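The replication-dependent histone genes were taken as the genes whose GENCODE vM21 symbol begins with Hist1h, Hist2h, Hist3h or Hist4h, which gave 67 of the 43629 genes with counts. The annotation holds 70 such symbols, and the other 3, Hist1h2bh, Hist1h2bm and Hist2h2bb, were not analysed here. The 67 were 6 genes of the linker histone H1, 20 of H2A, 16 of H2B, 12 of H3 and 13 of H4. By their names 54 belonged to Hist1, the large cluster on mouse chromosome 13, 9 to Hist2 on chromosome 3 and 3 to Hist3 on chromosome 11, while Hist4h4 stands alone on chromosome 6. The annotation calls 3 of them pseudogenes, Hist1h2aj, Hist1h2al and Hist3h2bb-ps. They are described here across the 6 groups of a study on the microbiome and social behaviour.

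RNA was taken from the amygdala of the left hemisphere of male Swiss Webster mice aged 10 weeks, first-generation offspring of conventional or germ-free breeding pairs. CON mice had a conventional microbiota, GF mice were kept germ-free throughout, and exGF mice left the germ-free unit after weaning and were colonised from soiled CON bedding. They were either naïve or were killed 1 hr after a social interaction test (CON-SI, GF-SI, exGF-SI). Each naïve group had 4 libraries, CON-SI and exGF-SI had 8 each and GF-SI had 12. A library whose name ends in P and a number is a pool of naïve RNA, from 2 animals by the methods and 2 to 3 by the series' design text. A name ending in S and a number is 1 animal after SI, so SI and naïve differ in pooling too, and SI mice had also been habituated to the arena. GF and exGF mice come from germ-free pairs and CON mice from others, so that colonisation and parentage cannot be told apart between CON and the other groups. All libraries were depleted of ribosomal RNA and not selected for poly(A) tails. The summed level of 5 markers of amygdala nuclei lay between 97.8 and 208 CPM (counts per 1000000 counts of the library, after scaling) in all 40 libraries, with none of the 5 at 0 throughout a group.

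The core histones H2A, H2B, H3 and H4 form the protein spool round which DNA is wound, and H1 binds the DNA between spools. Most genes for them lie in clusters and are transcribed during S phase, when new DNA needs histones. Their mRNAs end in a stem-loop that is bound by the protein Slbp, in place of a poly(A) tail. Most cells of the adult brain do not divide and take new histones from genes outside the clusters, such as H3f3a and H3f3b.

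The stem-loop is shown first, since it marks these mRNAs and was not used to choose the genes. A search of the annotated transcripts for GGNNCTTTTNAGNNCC (N is any base, sense strand only) found it in 42 of the 67 genes (62.7%) and in 34 of 21884 other protein-coding genes (0.155%). By class it was found in 4 of 6 H1, 11 of 20 H2A, 8 of 16 H2B, 8 of 12 H3 and 11 of 13 H4 genes. The 11 H4 genes carried 3 forms of the stem-loop that no gene of another class carried, and the form with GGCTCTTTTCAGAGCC was found in 24 genes, none of them H4. In the lines below the capitals mark the stem-loop as it stands in the GENCODE vM21 transcript, and the genes are those whose levels are described further on.
Hist1h4f (H4): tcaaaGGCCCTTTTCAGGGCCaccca
Hist1h4h (H4): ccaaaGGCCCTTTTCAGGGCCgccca
Hist1h4b (H4): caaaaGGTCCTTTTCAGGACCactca
Hist3h2ba (H2B): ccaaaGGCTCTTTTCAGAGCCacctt
Hist1h2bb (H2B): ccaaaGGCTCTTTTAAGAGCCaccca
Hist2h2ac (H2A): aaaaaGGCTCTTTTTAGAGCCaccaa
In 20 of the 42 genes the annotated transcript ended within 60 bases of the stem-loop, and in 17 it ran on for more than 300 bases, 2445 of them in Hist4h4. Reads past the stem-loop are therefore counted for some genes and not for others. The annotated models had a single exon in 62 of the 67 genes. Of the genes called below, Hist1h2al, Hist1h4a, Hist1h4k and Hist1h2bn had no match in their annotated transcripts. Some other genes named below, such as Hist1h2ai, Hist1h2bc and Hist1h1b, had none either. This says only that these letters are not in them.

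The start of these genes was compared in the same way, over the 250 bases before and 50 after each start site in RefSeq (GRCm38.p6), with 59 of the 67 genes matched. A CCAAT box (CCAAT on either strand) was found in all 6 H1, 18 H2A, 13 H2B and 10 H3 promoters and in 3 of 12 H4 promoters, against 37.4% of all 32851 promoters. A TATA box (TATAAA on either strand) was found in 35 of the 59 (59.3%) and in 13.6% of all promoters. The octamer ATTTGCAT, the site known for the factor Pou2f1, was found on either strand in 7 H2A and 4 H2B promoters and in 1.73% of all. No H1, H3 or H4 promoter held the octamer. The 100 bases before the start site are shown for 4 genes that are prominent below, with these motifs in capitals.
Hist1h4h, chr13:23530944-23531043, plus strand: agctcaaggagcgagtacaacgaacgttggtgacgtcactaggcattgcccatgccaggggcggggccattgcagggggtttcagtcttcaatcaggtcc
Hist1h2bg, chr13:23571300-23571399, plus strand: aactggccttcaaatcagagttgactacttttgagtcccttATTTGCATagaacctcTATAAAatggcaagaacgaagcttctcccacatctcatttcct
Hist3h2ba, chr11:58948811-58948910, plus strand: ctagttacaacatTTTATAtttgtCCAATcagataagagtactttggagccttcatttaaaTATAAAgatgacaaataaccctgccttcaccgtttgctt
Hist2h2ac, chr3:96220881-96220980, minus strand: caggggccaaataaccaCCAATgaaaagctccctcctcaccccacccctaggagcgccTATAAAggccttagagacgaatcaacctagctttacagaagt
The H4 stretch holds none of the 3 motifs, that of Hist1h2bg holds the octamer and a TATA box, and those of Hist3h2ba and Hist2h2ac hold CCAAT and TATA boxes. H2A and H2B genes were also neighbours: 13 pairs lay head to head, with 173 to 306 bases between their annotated starts. The stretches searched for motifs overlap in such pairs, as in Hist1h2ae and Hist1h2bg, so that the same motif can count for both genes. The H2A and H2B counts of the 3 motifs above are therefore not separate. Of the 11 pairs with any counts, H2B was the higher per kilobase of exon in 7 and H2A in 4. The widest of these gaps in level was between Hist1h2bg, at a mean of 17.3 CPM per kb, and its neighbour Hist1h2ae at 0.0750.

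Over the 40 libraries the histone genes held 2226 to 9212 counts of a total of 7291810 to 19961958, or 0.0212% to 0.0679%. Of the 67 genes 9 had no count in any library, 24 had a mean above 0 but under 1 CPM, 34 reached 1 CPM and 13 reached 10 CPM. In 7 of the 9 genes at 0, most of the 100-base windows of the transcript were also found in another gene. In 5 libraries (exGF-S7, exGF-P2, exGF-P1, CON-P3 and CON-P1) the gene Gm42418, which overlaps a ribosomal RNA repeat, took 6.23% to 32.3% of the counts, against at most 1.75% in the others. The edgeR calls of histone genes that rest on these libraries are given with and without them. Calls by DESeq2 and calls of cell type markers are given with them only. Between libraries of 1 group the chi-square per degree of freedom was at least 7.80 in all 140 pairs, so that none was a copy of another. Replicates are described by the labels as samples of a group, and p-values measure the spread between these libraries.

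H4 genes were by far the most abundant per length (see the plot of levels per kilobase of exon). Hist1h4f led with a mean of 112 CPM per kb, followed by Hist1h4h with 76.4, Hist1h4c with 59.3 and Hist1h4d with 42.2 CPM per kb. Of H1, Hist1h1e was highest with 29.6 CPM per kb, ahead of Hist1h1a with 10.4, Hist1h1c with 7.88 and Hist1h1b with 2.12. Of H2B, Hist1h2bb reached 21.2, Hist1h2bg 17.3, Hist3h2ba 13.0 and Hist1h2bc 12.9 CPM per kb. Of H2A, the pseudogene Hist1h2al reached 12.8, Hist3h2a 7.16, Hist2h2ac 5.80 and Hist1h2ak 4.66 CPM per kb. H3 genes were the lowest, with Hist1h3i at 2.05, Hist1h3e at 1.22, Hist1h3d at 1.06 and Hist1h3a at 0.746 CPM per kb. Genes of a class are close copies of each other, and the share of windows found elsewhere differs between them (18.2% in Hist1h4f, 38.5% in Hist1h4h, 0% in Hist1h4d). Exons of another gene overlap 25 of the 67 genes. Every H2A gene is among them, with an overlap on the other strand. With strand ignored in counting, the H2A levels here and in the pairs above may hold reads of these partners. The length of the model enters as well. Hist1h1d, at 9.31 CPM, was at 1.25 CPM per kb over 7425 bases, 4884 of them past the stem-loop. The part of these in the order within a class was not tested.

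**Figure D1:**
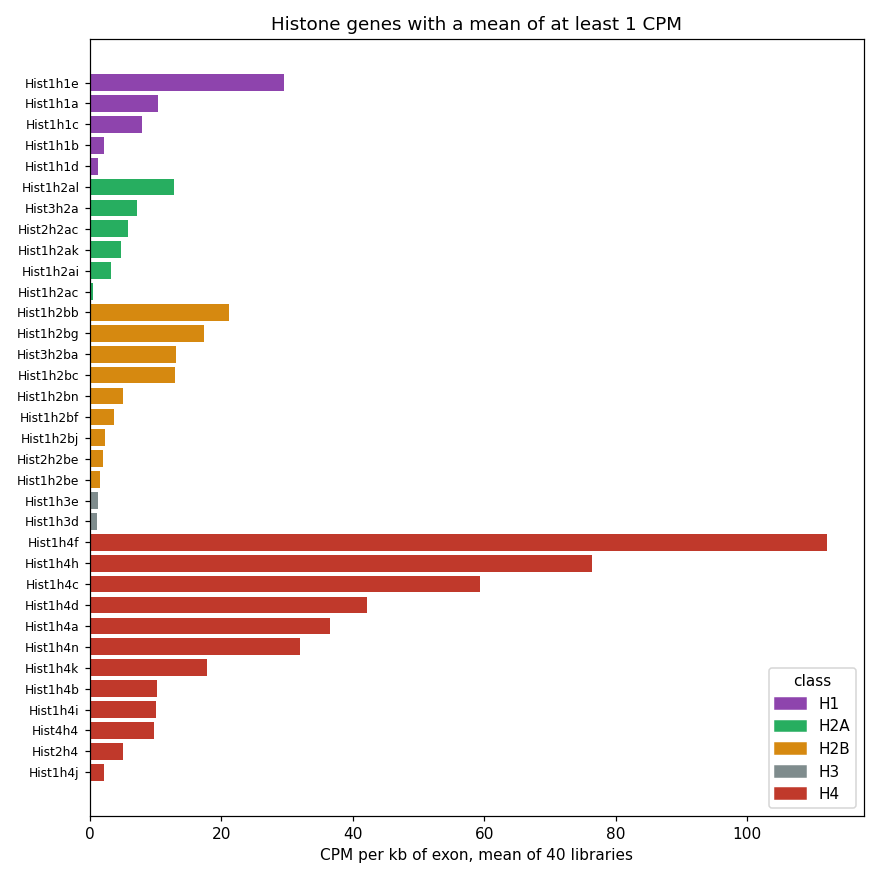
Level of each histone gene with a mean of at least 1 CPM, as CPM per kb of exon (x axis, linear, mean of 40 libraries), with genes grouped and coloured by class. H4 genes hold the 6 longest bars, led by Hist1h4f at 112 CPM per kb, and H3 genes are short.

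Summed within each library, H4 made up 58.8% of the mean histone level, H1 19.6%, H2B 14.04%, H2A 6.51% and H3 1.09%. The 10 highest genes held 72.3% of it, and the Hist1 cluster 84.3%. These shares are of counts and are not per length, so longer models weigh more in them.

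The summed histone level lay between 393 and 550 CPM in CON, 335 and 471 in GF and 452 and 578 in exGF, and after SI between 423 and 643 in CON-SI, 342 and 505 in GF-SI and 321 and 562 in exGF-SI. All 6 groups overlapped. H4 alone ranged from 207 to 371 CPM in CON, from 178 to 270 in GF and from 283 to 388 in exGF, so that all 4 exGF libraries were above all 4 GF libraries. In CON-SI the H4 sum had a lowest value of 237, a median of 287 and a highest of 381 CPM. In GF-SI it was 188, 241 and 299, and in exGF-SI 170, 246 and 325 CPM. The mean and SD of H4 were 331 ± 45.1 CPM (SD, n = 4) in exGF and 233 ± 39.2 (SD, n = 4) in GF. Sums were described and not tested. In such bulk tissue fewer cells of a type and less RNA per cell cannot be told apart.

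**Figure D2:**
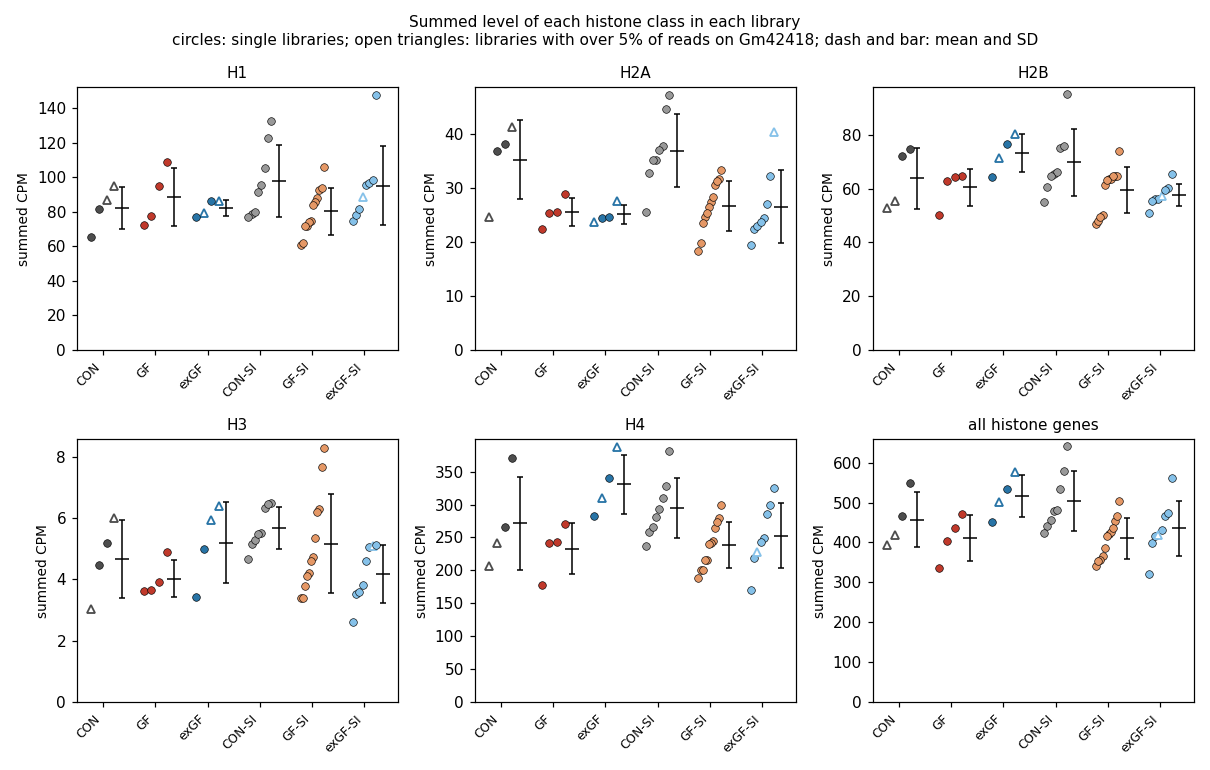
Summed CPM of the genes of each histone class and of all histone genes (y axes, linear from 0) in each library of the 6 groups, with the mean and SD beside the points. In the H4 panel the 4 exGF libraries lie at 283 to 388 CPM, above the 4 GF libraries at 178 to 270, and in the H2A panel the medians are 37.5 in CON and 36.1 in CON-SI against at most 26.9 CPM in the other groups. Without the pseudogene Hist1h2al (not drawn) the H2A medians are 24.5 in CON and 28.0 in CON-SI against 21.8 to 24.9 CPM in the other groups.

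Each pair of groups was then compared gene by gene over all genes that passed the filter on low counts, with edgeR's quasi-likelihood test and an adjusted p of at most 0.1. Of the 67 histone genes 42 passed the filter in at least 1 fit, 35 to 39 in any single comparison, and 25 in none. In all, 10 genes were called in 13 instances over the 9 comparisons (see the plot of fold changes). The comparisons share libraries: CON, for instance, serves both GF and exGF. In GF against CON 1 of 35 tested histone genes was called lower, where 0.0878% of all tested genes were. In exGF against CON it was again 1 of 35, where 0.0484% of all were called lower. In GF-SI against CON-SI 4 of 39 (10.3%) were called lower, against 0.643% of all, and in exGF-SI against CON-SI 1 of 38 (2.63%) against 0.462%. In exGF-SI against exGF 4 of 37 (10.8%) were called lower, against 3.01% of all. In GF-SI against GF 2 of 39 (5.13%) were called higher, against 7.87% of all, which is no more than the background.

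In the remaining comparisons no histone gene was called by edgeR. In exGF against GF 0% of all tested genes were called, while 12 of 35 histone genes (34.3%) had an unadjusted p under 0.05, against 9.42% of all genes, and DESeq2 called 3 of the 57 it gave a p (5.26%), against 0.278% of all. Of 39 histone genes 6 (15.4%) had such a p without the libraries rich in Gm42418, which are 2 of the 4 exGF libraries, against 4.42% of all. In CON-SI against CON 3.72% of all genes were called, 2 of 39 histone genes (5.13%) had an unadjusted p under 0.05 against 16.5% of all, and DESeq2 called 1 of 57 (1.75%) against 3.57%. Without those libraries, 2 of the 4 of CON, 1 of 43 (2.33%) had such a p against 11.3% of all. In exGF-SI against GF-SI 0.0995% of all genes were called, 5 of 39 histone genes (12.8%) had an unadjusted p under 0.05 against 12.9% of all, and DESeq2 called 0 of 57 where it called 1.06% of all. Without exGF-S7 5 of 39 had such a p again, against 14.8% of all.

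**Figure D3:**
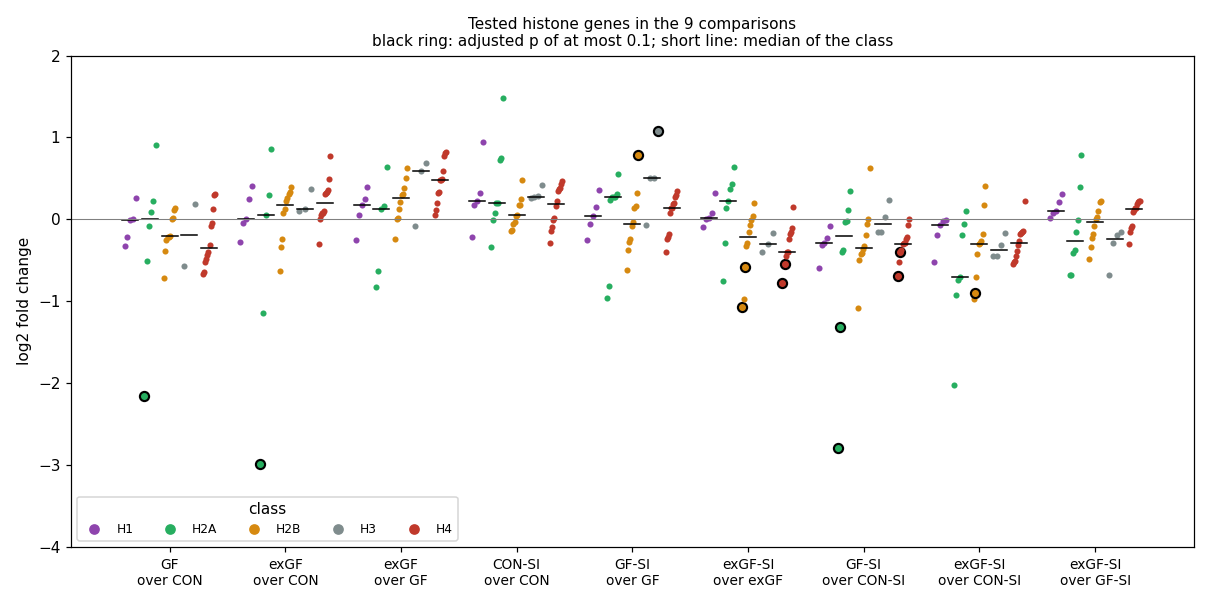
Log2 fold change (y axis) of every tested histone gene in the 9 comparisons (x axis), coloured by class, with the class median as a short line and a black ring round genes with an adjusted p of at most 0.1. The lowest points are Hist1h2al, at -2.99 in exGF against CON and -2.79 in GF-SI against CON-SI. In exGF against GF 30 of all 35 points lie above 0, among them all 12 of H4.

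Among the H2A genes, which encode a core histone, the clearest difference was in Hist1h2al. It lies away from the Hist1 cluster, at chr13:51202727-51203065 on the minus strand (GRCm38), and is annotated as a pseudogene with 1 exon. Its level was 17.7, 11.5, 7.28 and 10.6 CPM in CON-P1 to CON-P4, 2.03, 1.16, 4.22 and 3.07 CPM in GF-P1 to GF-P4, and 2.17, 1.37, 1.31 and 1.14 CPM in exGF-P1 to exGF-P4. In CON-SI it was lowest at 6.17, with a median of 8.10 and a highest value of 15.0 CPM. In GF-SI it ranged from 0 to 3.64 CPM with a median of 1.04, and the library at 0, GF-S12, allows up to 0.236 CPM (3 counts). All 12 libraries of CON and CON-SI were thus at or above 6.17 CPM, and all 16 of GF and GF-SI were at or below 4.22 CPM. In exGF-SI 7 of the 8 libraries lay between 0.123 and 1.76 CPM, while exGF-S7 was at 14.7 CPM, from 187 counts, among the CON values.

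Hist1h2al was lower in GF than in CON by a log2 fold change of -2.16 ± 0.34 (SE, adjusted p = 0.052), in exGF than in CON by -2.99 ± 0.29 (adjusted p = 0.0018) and in GF-SI than in CON-SI by -2.79 ± 0.41 (adjusted p = 0.0012). In exGF-SI against CON-SI the log2 fold change was -2.02 ± 0.67 (adjusted p = 0.18), and without exGF-S7 it was -3.90 ± 0.39 (adjusted p = 9.01e-05). Without the libraries rich in Gm42418 it was -2.10 ± 0.33 in GF against CON (adjusted p = 0.073) and -3.19 ± 0.24 in exGF against CON (adjusted p = 0.0030). In 1 fit over the 6 groups, where the spread includes that of exGF-SI, the log2 fold changes were -2.17 ± 0.81 and -2.99 ± 0.88, with adjusted p-values of 0.31 and 0.53. Leaving out CON-P2 or GF-P1 ended the call of GF against CON, at log2 fold changes of -2.17 and -2.05 (adjusted p = 0.14 and 0.12). Of its 100-base windows 19.2% were also found in other genes, among them Hist2h2aa1 and Hist2h2aa2, and its exon is overlapped on the other strand by Gm44341, whose reads cannot be told apart from its own since strand was not used in counting. Its level is uncertain on both counts. Social interaction did not move it past the threshold in any origin, with log2 fold changes of -0.33 ± 0.27 in CON, -0.96 ± 0.61 in GF and 0.64 ± 1.05 in exGF, the last of which was -0.96 ± 0.69 without the libraries rich in Gm42418.

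Hist2h2ac, an H2A gene of the Hist2 cluster at chr3:96220361-96220880, was also highest in conventional mice. It was at 6.54, 4.85, 2.84 and 4.76 CPM in CON-P1 to CON-P4, at 3.08, 2.97, 4.77 and 2.47 CPM in GF-P1 to GF-P4 and at 1.85, 1.72, 2.54 and 2.22 CPM in exGF-P1 to exGF-P4. After SI its lowest, median and highest values were 2.39, 4.54 and 6.56 CPM in CON-SI, 0.628, 1.83 and 3.16 CPM in GF-SI, and 1.30, 2.31 and 5.42 CPM in exGF-SI, the last again in exGF-S7. The exGF libraries were all below the CON libraries, and the other groups overlapped. The difference was called in GF-SI against CON-SI (log2 fold change -1.32 ± 0.23, adjusted p = 0.0074) and not in GF against CON (-0.51 ± 0.27, adjusted p = 0.51), exGF against CON (-1.14 ± 0.25, adjusted p = 0.27, and 0.049 by DESeq2) or exGF-SI against CON-SI (-0.92 ± 0.26, adjusted p = 0.11). Without exGF-S7 the last of these was called (-1.17 ± 0.22, adjusted p = 0.023). Windows shared with other genes made up 6.89%. Its exon is overlapped on the other strand by Gm44492, whose reads cannot be told apart from its own, so its level is uncertain too.

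**Figure D4:**
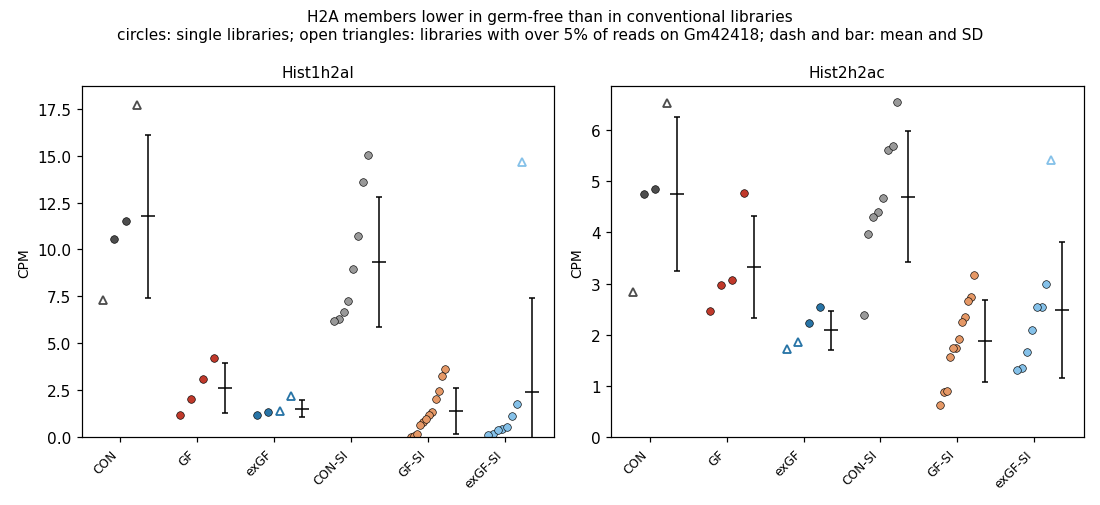
CPM of Hist1h2al and Hist2h2ac (y axes, linear from 0) in each library of the 6 groups, with the mean and SD beside the points and open triangles for the libraries rich in Gm42418. For Hist1h2al every CON and CON-SI library is at or above 6.17 CPM and every GF and GF-SI library at or below 4.22 CPM, with exGF-S7 alone at 14.7 CPM among the exGF-SI libraries.

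The whole Hist2 cluster, of 9 genes, summed to between 17.3 and 26.2 CPM in the 12 CON and CON-SI libraries, with a median of 22.8. It summed to between 13.2 and 17.7 CPM in the 16 GF and GF-SI libraries (median 15.9) and to between 15.8 and 20.9 in the 12 exGF and exGF-SI libraries (median 17.04). CON-SI, at 20.5 CPM or more, and GF-SI, at 17.5 or less, did not overlap. Besides Hist2h2ac the sum holds Hist2h2be, an H2B gene that lies head to head with Hist2h2ac at 239 bases between starts, and the H4 gene Hist2h4. Hist2h2be had a log2 fold change of -0.63 ± 0.16 when exGF was set against CON (adjusted p = 0.40) and Hist2h4 of -0.38 ± 0.10 in GF-SI against CON-SI (adjusted p = 0.104, just above the threshold). Apart from Hist1h2al, the H2A sum was 23.5 ± 4.40 CPM in CON, 22.9 ± 2.62 in GF and 23.6 ± 1.28 in exGF (SD, n = 4 each). After SI this sum was 27.6 ± 4.00 CPM in CON-SI (SD, n = 8), 25.3 ± 4.22 in GF-SI (n = 12) and 24.2 ± 3.88 in exGF-SI (n = 8). Hist1h2ai, another H2A gene, was at 0.707, 0.455, 0.178 and 0.910 CPM in CON-P1 to CON-P4 and from 0.426 to 2.39 CPM in CON-SI (median 1.66). Its log2 fold change of 1.49 ± 0.47 in CON-SI against CON had an adjusted p of 0.13, and DESeq2 called it (1.51, adjusted p = 0.046). Without CON-P1 and CON-P3 it was 1.201 ± 0.56 (adjusted p = 0.45).

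H4 encodes the most conserved core histone. Across the 12 H4 genes tested in each fit the fold changes leaned to 1 side: 9 were below 0 in GF against CON (median log2 fold change -0.36), 11 above 0 in exGF against CON (0.21) and 12 above 0 in exGF against GF (0.48), against medians over all genes of 0.000305, -0.00468 and -0.00729. Without the libraries rich in Gm42418 these counts were 11 below, 9 below and 11 above, with medians of -0.58, -0.14 and 0.35, so that the direction in exGF against CON turned. With all libraries 22 of the 35 tested histone genes, H4 included, were below 0 in GF against CON (median -0.20). In exGF against CON 27 of 35 were above 0 (0.12), and in exGF against GF 30 of 35 (0.30). Without the libraries rich in Gm42418 the medians of all tested histone genes were -0.35, -0.14 and 0.17. No H4 gene was called in these 3 comparisons. Some other lists had medians of the same sign in GF against CON and in exGF against GF, and some did not, none with a call. Markers of excitatory neurons had medians of -0.30 and 0.34, and summed to between 1671 and 2272 CPM in CON, 1455 and 1827 in GF and 1704 and 2159 in exGF. Markers of amygdala nuclei had medians of -0.27 and 0.26, and other RNAs without a poly(A) tail of -0.28 and 0.14. Of these lists 0 of 4, 0 of 5 and 0 of 4 tested genes were called, and no marker was at 0 throughout a group. Markers of the choroid plexus had larger medians of the same sign, at -1.33 and 0.56. Among the lists that went the other way were markers of striatum, with medians of 0.65 and -0.50. Inhibitory neurons (0.05 and -0.10) and astrocytes (0.02 and -0.09) did so too. The part of any of these lists in the H4 values was not tested. The H4 genes were measured in the same libraries, so that they do not count as separate observations. Some are also near copies, with shared windows from 0% in Hist1h4d to 80.7% in Hist1h4n.

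Hist1h4h (chr13:23531050-23531519) had the smallest p of the histone genes in exGF against GF. It was at 33.5, 26.7, 29.0 and 25.7 CPM in GF-P1 to GF-P4 and at 50.5, 61.5, 50.8 and 40.4 CPM in exGF-P1 to exGF-P4, with every exGF library above every GF library. In CON-P1 to CON-P4 it was at 41.2, 58.8, 24.2 and 35.3 CPM, a range that overlaps both groups. The log2 fold change of exGF over GF was 0.81 ± 0.13 (adjusted p = 0.17, unadjusted p = 3.49e-05). DESeq2 gave 0.82 with an adjusted p of 3.68e-05. Hist1h4f was at 42.0, 35.1, 37.9 and 23.9 CPM in GF-P1 to GF-P4 and at 65.0, 72.4, 61.0 and 48.5 CPM in exGF-P1 to exGF-P4, again without overlap. It had a log2 fold change of 0.82 ± 0.17 (adjusted p = 0.28), and DESeq2 called it (0.83, adjusted p = 0.0015). Hist1h4a was at 16.8, 14.4, 17.4 and 13.97 CPM in GF-P1 to GF-P4 and at 22.9, 35.8, 26.7 and 22.3 CPM in exGF-P1 to exGF-P4, with a log2 fold change of 0.78 ± 0.15 (adjusted p = 0.28, and 0.0023 by DESeq2). Hist2h4 followed with 0.49 ± 0.14 (adjusted p = 0.40). Without exGF-P1 and exGF-P2 the log2 fold changes were 0.66 ± 0.13 for Hist1h4h, 0.65 ± 0.19 for Hist1h4f, 0.64 ± 0.14 for Hist1h4a and 0.36 ± 0.16 for Hist2h4, with adjusted p-values of 0.96 and, for the other 3, 0.99. Against CON, whose Hist1h4a was at 18.9, 35.0, 25.2 and 18.9 CPM, GF was lower by -0.67 ± 0.18 with an adjusted p of 0.28, and Hist1h4i by -0.64 ± 0.19 with an adjusted p of 0.31.

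After social interaction Hist1h4h and Hist1h4a were lower in exGF-SI than in exGF. Hist1h4h had a lowest value of 13.3, a median of 32.1 and a highest of 38.4 CPM in exGF-SI, all 8 below the lowest exGF library at 40.4. Its log2 fold change was -0.78 ± 0.20 (adjusted p = 0.051). Hist1h4a ranged from 12.0 to 22.9 CPM in exGF-SI with a median of 18.9, overlapping with exGF, and changed by -0.54 ± 0.18 (adjusted p = 0.097). Hist1h4f had a log2 fold change of -0.55 ± 0.20 (adjusted p = 0.135). Of the 12 H4 genes 11 were below 0, with a median of -0.40. Over all 37 tested histone genes 26 were below 0 (median -0.17). The other class medians were -0.29 in H3, -0.22 in H2B, 0.02 in H1 and 0.22 in H2A.

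Both calls were lost without exGF-P1, exGF-P2 and exGF-S7, the libraries rich in Gm42418, with log2 fold changes of -0.62 for Hist1h4h (adjusted p = 0.31) and -0.39 for Hist1h4a (adjusted p = 0.42), and all 4 histone calls of this comparison were lost then, while calls over all genes went from 1161 to 155. Without exGF-P2 alone Hist1h4h had an adjusted p of 0.18 and Hist1h4a of 0.32. An offset for GC content and transcript length left 2 of the 4, with Hist1h4h at -0.65 (adjusted p = 0.11). Among the list of other RNAs without a poly(A) tail, Rn7sk, the 7SK RNA, was lower in exGF-SI than in exGF by -0.57 ± 0.15 (adjusted p = 0.060). It was at -0.41 with an adjusted p of 0.16 without the libraries rich in Gm42418. Its range was 60472 to 94201 CPM in exGF-SI against 99615 to 150120 in exGF. Of the 4 RNAs of that list that were tested, 1 was called lower and their median was -0.52. With all libraries, the list and the H4 genes had medians of opposite sign in some other comparisons and of the same sign in others. The same sign was seen in GF against CON (-0.28 against -0.36) and exGF against GF (0.14 against 0.48). It was also seen in GF-SI against CON-SI (-0.28 against -0.30) and exGF-SI against CON-SI (-0.39 against -0.28). Opposite signs were seen in the comparisons that follow. These were -0.21 against 0.14 in GF-SI against GF, and -0.25 against 0.19 in CON-SI against CON. They were -0.09 against 0.21 in exGF against CON, and -0.11 against 0.13 in exGF-SI against GF-SI. Without the libraries rich in Gm42418 the H4 median was -0.11 in CON-SI against CON and -0.14 in exGF against CON. The median of the list is given with all libraries only. Markers of the choroid plexus summed to between 17.2 and 44.8 CPM in exGF and to between 26.9 and 1450 in exGF-SI, with none of the 4 at 0 throughout a group and 1 of the 4 called higher. The 5 markers of amygdala nuclei summed to between 156 and 182 CPM in exGF and between 117 and 155 in exGF-SI, without overlap, with 1 of 5 called lower and a median log2 fold change of -0.38. Of 4 markers each of excitatory and inhibitory neurons 1 was called lower. Of 4 microglia markers 2 were called lower, as were 2 of 4 of endothelium and pericytes. Of all tested genes 3.01% were called lower in this comparison and 4.6% higher. These marker calls are given with the libraries rich in Gm42418 only. The part of these in the result was not tested.

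In GF-SI against CON-SI 33 of all 39 tested histone genes were below 0 (median -0.29). The class medians were -0.34 in H2B, -0.29 in H1, -0.20 in H2A and -0.06 in H3. All 12 H4 genes were below 0 (median -0.30), or 11 with RLE scaling or the offset for GC content and length, and 2 were called. Hist1h4k had lowest, median and highest values of 4.63, 6.59 and 10.4 CPM in CON-SI and 2.67, 4.47 and 6.50 CPM in GF-SI, with a log2 fold change of -0.69 ± 0.17 (adjusted p = 0.076). Of its windows 64.3% were shared with other H4 genes. Hist1h4d, none of whose windows was shared, had lowest, median and highest values of 39.7, 55.3 and 78.5 CPM in CON-SI and 35.5, 42.3 and 48.1 CPM in GF-SI, with a log2 fold change of -0.39 ± 0.10 (adjusted p = 0.096). The groups overlapped for both genes. Both calls were close to the threshold: with each of the 20 libraries left out in turn, Hist1h4k lost it 12 times and Hist1h4d 15 times, with adjusted p-values up to 0.19 and 0.22. Rpph1, another RNA without a poly(A) tail, was lower as well (-0.39 ± 0.10, adjusted p = 0.066), and its part in the result was not tested. In exGF-SI against CON-SI 34 of all 38 tested histone genes were below 0 (median -0.30). The class medians were -0.70 in H2A, -0.38 in H3, -0.30 in H2B and -0.07 in H1. Of the H4 genes 11 of 12 were below 0 there (median -0.28), none called, with Hist1h4k at -0.55 ± 0.17 (adjusted p = 0.15). In exGF-SI against GF-SI Hist1h4d had the smallest p (0.23 ± 0.07, adjusted p = 0.22). Hist4h4, the H4 gene on chromosome 6, had log2 fold changes of 0.31 ± 0.21 in GF and 0.36 ± 0.12 in exGF against CON (adjusted p = 0.63 and 0.74), and of 0.43 ± 0.22 in CON-SI against CON (adjusted p = 0.34). Hist1h4b was at 0.47 ± 0.23 in the last of these (adjusted p = 0.335). Without CON-P1 and CON-P3 these 2 values were 0.27 ± 0.29 and 0.16 ± 0.24.

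H2B, the partner of H2A in the nucleosome, gave 3 called genes. Hist3h2ba, on chromosome 11 at chr11:58948920-58949533, was at 11.5, 10.0, 5.95 and 9.31 CPM in CON-P1 to CON-P4, at 11.8, 8.92, 9.44 and 6.69 CPM in GF-P1 to GF-P4 and at 11.8, 11.4, 10.0 and 9.69 CPM in exGF-P1 to exGF-P4. After SI its lowest, median and highest values were 6.14, 8.01 and 13.9 CPM in CON-SI, 2.67, 7.19 and 11.3 CPM in GF-SI and 3.10, 4.999 and 6.82 CPM in exGF-SI. Every exGF-SI library was below every exGF library. It was lower in exGF-SI than in exGF (log2 fold change -1.07 ± 0.16, adjusted p = 0.011) and than in CON-SI (-0.90 ± 0.19, adjusted p = 0.0485), and kept both calls with each library left out in turn (adjusted p at most 0.059 and 0.0997). Without the libraries rich in Gm42418 the first was -0.90 ± 0.22 with an adjusted p of 0.11. Choroid plexus markers were called higher in exGF-SI than in CON-SI too (2 of 3 tested, with exGF-S7 included), where 0.844% of all genes were. The part of these markers was not tested. Against GF-SI the difference was -0.48 ± 0.20 (adjusted p = 0.32). Windows shared with other genes made up 4.85%.

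Hist1h2bg, an H2B gene of the Hist1 cluster at chr13:23571396-23572013, was at 14.2, 13.3, 16.6 and 11.4 CPM in exGF-P1 to exGF-P4 and had lowest, median and highest values of 6.45, 9.33 and 10.8 CPM in exGF-SI, all below the exGF libraries. It fell with a log2 fold change of -0.59 ± 0.13 (adjusted p = 0.031), and was at -0.58 ± 0.18 without the libraries rich in Gm42418 (adjusted p = 0.17) and at -0.49 ± 0.14 without exGF-P3 (adjusted p = 0.102). Against CON-SI, at 8.94, 13.1 and 17.01 CPM, it was at -0.42 ± 0.12 (adjusted p = 0.13). Hist1h2bn moved the other way in GF mice: it was at 1.31, 1.81, 0.917 and 1.45 CPM in GF-P1 to GF-P4 and had lowest, median and highest values of 1.49, 2.26 and 3.33 CPM in GF-SI. This rise (log2 fold change 0.79 ± 0.24, adjusted p = 0.049) lost its call without GF-P1 (0.76 ± 0.27, adjusted p = 0.11) or GF-P3 (0.66 ± 0.26, adjusted p = 0.19). Of its windows 52.1% were shared with other H2B genes. Hist3h2bb-ps, annotated as a pseudogene, had a log2 fold change of -0.62 ± 0.25 in GF-SI against GF (adjusted p = 0.14), and Hist2h2ac of the H2A genes one of -0.82 ± 0.30 (adjusted p = 0.103).

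H3, the core histone with the most studied tail marks, had at most 4 of its 12 genes past the filter on low counts. Hist1h3d was at 0.851, 0.797, 0.642 and 0.843 CPM in GF-P1 to GF-P4 and had lowest, median and highest values of 0.870, 1.67 and 2.92 CPM in GF-SI, so that the groups did not overlap. Its log2 fold change was 1.09 ± 0.29 (adjusted p = 0.030), and 1.02 without GF-P3 (adjusted p = 0.12). In CON-P1 to CON-P4 it was at 1.24, 1.06, 0.799 and 1.54 CPM and in exGF-P1 to exGF-P4 at 1.63, 1.37, 1.23 and 1.03 CPM, and 3 of the 4 CON libraries and all exGF libraries were above the GF libraries. Against GF-SI it was at -0.68 ± 0.24 in exGF-SI (adjusted p = 0.24).

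H1 compacts the fibre between nucleosomes, and no H1 gene was called in any comparison. Hist1h1e, the H1 gene with most counts, was at 53.6, 36.02, 57.2 and 54.3 CPM in CON-P1 to CON-P4, at 63.96, 47.5, 78.2 and 52.4 in GF-P1 to GF-P4 and at 51.1, 43.2, 57.0 and 51.8 in exGF-P1 to exGF-P4, and these groups overlapped. Its smallest p was that of exGF-SI against GF-SI (0.31 ± 0.12, adjusted p = 0.29). Its model overlaps that of Hist1h2be on the same strand, and reads there cannot be assigned with certainty. Hist1h1c had a log2 fold change of -0.33 ± 0.14 in GF against CON (adjusted p = 0.43) and Hist1h1b of 0.94 ± 0.36 in CON-SI against CON (adjusted p = 0.21), or 1.39 ± 0.45 without CON-P1 and CON-P3 (adjusted p = 0.28).

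**Figure D5:**
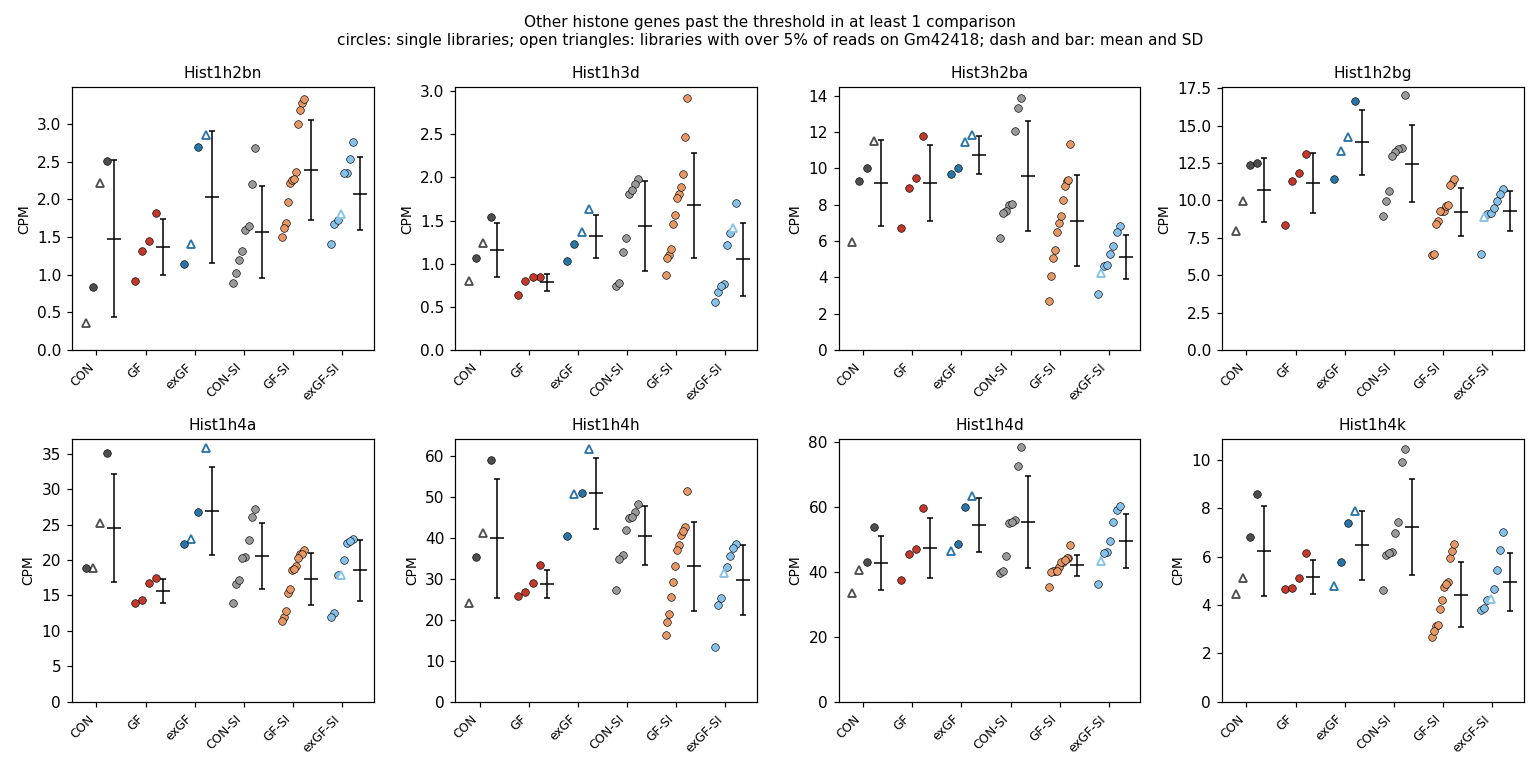
CPM of the other 8 histone genes called in at least 1 comparison (y axes, linear from 0) in each library of the 6 groups, with the mean and SD beside the points and open triangles for the libraries rich in Gm42418. Hist3h2ba, Hist1h2bg and Hist1h4h lie lower in every exGF-SI library than in every exGF library, and Hist1h3d lies lower in every GF library than in every GF-SI library.

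Whether the response to social interaction differed between origins was tested as a difference of log2 fold changes in 1 fit over the 6 groups, with 42 histone genes tested. No histone gene was called by edgeR in any of the 3 differences. For GF against CON 0.0931% of all genes were called, 5 of the 42 (11.9%) had an unadjusted p under 0.05 against 15.8% of all, and DESeq2 called 1 of 58 (1.72%) against 1.67% of all, so that the histone share was not above the background. That gene was Hist4h4, with a difference of -0.83 ± 0.26 (adjusted p = 0.13 by edgeR and 0.068 by DESeq2). Hist1h4d (-0.52 ± 0.20), Hist2h2ab (-1.30 ± 0.52) and Hist1h1e (-0.57 ± 0.24) followed, with adjusted p-values of 0.20 to 0.24. When the libraries rich in Gm42418 were left out, 2 of 44 (4.55%) had an unadjusted p under 0.05 against 8.86% of all, Hist4h4 was at -0.67 ± 0.31 (adjusted p = 0.55), and the median of the H4 genes turned from -0.10 to 0.19. With the offset for GC content and transcript length it was 0.07. Over all tested histone genes the medians were -0.25 with all libraries, -0.11 without those rich in Gm42418 and -0.12 with the offset. For exGF against CON 0% of all genes were called by edgeR and 0.00338% by DESeq2, which called 0 of 58 histone genes, and 7 of 42 (16.7%) had an unadjusted p under 0.05 against 5.83% of all. Of the 42 histone genes 35 were below 0 there (median -0.47), among them all 12 H4 genes (median -0.49). The other class medians were -0.54 in H2B, -0.51 in H3, -0.33 in H2A and -0.15 in H1. Hist1h2bg (-0.76 ± 0.22, adjusted p = 0.72), Hist3h2ba (-1.12 ± 0.36, adjusted p = 0.785), Hist1h4b (-1.02 ± 0.35, adjusted p = 0.79) and Hist1h2be (-0.53 ± 0.21, adjusted p = 0.81) had the smallest p. Without the libraries rich in Gm42418 8 of the 12 H4 genes (median -0.11) and 32 of all 44 histone genes tested (median -0.26) were below 0. Of these 44 histone genes 0 had an unadjusted p under 0.05, against 2.70% of all genes. For exGF against GF 0% of all genes were called by edgeR and 0.145% by DESeq2, which again called 0 of 58, and 10 of 42 (23.8%) had an unadjusted p under 0.05 against 11.4% of all. Hist1h3d (-1.39 ± 0.44, adjusted p = 0.24) and Hist1h4h (-0.98 ± 0.33, adjusted p = 0.27) led, ahead of Hist1h4b (-0.89 ± 0.34) and Hist1h4a (-0.69 ± 0.26), both with an adjusted p of 0.30. Without the libraries rich in Gm42418 2 of 44 histone genes (4.55%) had an unadjusted p under 0.05, against 7.33% of all. The falls in exGF-SI and rises in GF-SI described above were thus not shown to differ from the responses of the other origins.

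The genes that serve histone mRNA were read from a list of 23 that transcribe, process, translate or degrade it. None was called in the 3 naïve comparisons or the 3 comparisons after SI. In GF-SI against GF 5 of 23 tested were called higher and 0 lower, among them Ncbp1 and Ncbp2, the subunits of the nuclear cap-binding complex (0.36 ± 0.08, adjusted p = 0.010, and 0.50 ± 0.14, adjusted p = 0.035), Srrt, their partner (0.29 ± 0.08, adjusted p = 0.035), and Eri1, an exonuclease that trims the stem-loop (0.31 ± 0.08, adjusted p = 0.021). Of all tested genes 7.87% were called higher there, and the median of the 23 was 0.08, against -0.01 over all genes. In exGF-SI against exGF 3 of 22 were called higher and 0 lower: Casp8ap2, which is needed for histone gene transcription (0.35 ± 0.09, adjusted p = 0.049), Lsm1 of the mRNA decay ring (0.37 ± 0.10, adjusted p = 0.052) and Srrt (0.27 ± 0.09, adjusted p = 0.0995), where 4.6% of all tested genes were called higher. None of these 3 was called without the libraries rich in Gm42418, at 0.32 ± 0.11, 0.45 ± 0.13 and 0.31 ± 0.11 (adjusted p = 0.19, 0.16 and 0.23). Slbp, the stem-loop binding protein, lay between 19.6 and 36.2 CPM and was called in no comparison.

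Markers of S phase and proliferation were mostly low. The 23 of them summed to between 75.6 and 98.5 CPM over the 40 libraries, with medians of 83.9 to 86.5 in the 6 groups. Pcna, the sliding clamp of DNA synthesis and repair, was the highest at 16.6 to 27.8 CPM and weighs most in that sum. Mki67, which marks dividing cells, lay between 1.12 and 5.63 CPM, and Tk1 between 0 and 0.326 CPM. In GF-SI against GF 1 was called higher, Cenpf of the kinetochore (0.93 ± 0.21, adjusted p = 0.012), and 2 lower, Ccne2 (-0.51 ± 0.09, adjusted p = 0.0039) and Cdt1 (-1.02 ± 0.34, adjusted p = 0.069), of 17 tested, where 7.87% of all genes were called higher and 5.86% lower. Cenpf was also called higher in GF-SI than in CON-SI (0.71 ± 0.16, adjusted p = 0.059), where 0.458% of all genes were. No other call was made in this list in the 9 comparisons. Immature neuron markers summed to between 67.0 and 118 CPM over all libraries, and 1 of 2 tested was called higher and 1 lower in GF-SI against GF.

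Of 11 replication-independent histone genes 10 were tested in GF-SI against GF and 2 were called higher, where 7.87% of all genes were: H3f3b, which encodes H3.3 (0.50 ± 0.16, adjusted p = 0.061), and H2afj (0.42 ± 0.15, adjusted p = 0.089). H3f3a, the other H3.3 gene, was called higher in exGF-SI than in CON-SI (0.33 ± 0.07, adjusted p = 0.051), where 0.844% of all genes were called higher and Hist3h2ba was lower. It was at 0.33 ± 0.08 without exGF-S7 (adjusted p = 0.071). None was called lower in the 9 comparisons. Of 11 histone chaperones, Chaf1a of the replication-coupled assembly factor was called lower in CON-SI than in CON (-1.12 ± 0.18, adjusted p = 0.0082) and Daxx, a chaperone of H3.3, higher (0.33 ± 0.09, adjusted p = 0.068), of 9 tested, where 1.37% of all genes were called lower and 2.35% higher. Without CON-P1 and CON-P3 neither was called, at -0.998 ± 0.22 and 0.29 ± 0.11 (adjusted p = 0.15 and 0.38). Nap1l1, a chaperone of H2A and H2B, was called higher in GF-SI than in GF (0.36 ± 0.10, adjusted p = 0.040) and in exGF-SI than in exGF (0.28 ± 0.07, adjusted p = 0.042), the latter at 0.35 ± 0.10 without the libraries rich in Gm42418 (adjusted p = 0.14).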

How the data were processed

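RNA-seq counts from 40 libraries of mouse amygdala were used. The libraries kept strand and were depleted of ribosomal RNA. The authors' paired reads went through CASAVA, Trimmomatic 0.32 and STAR 2.4.0f1 against GRCm38.p3, and HTSeq 0.6.0 then counted them on Ensembl 78 genes with strand ignored. The deposited values are whole-number counts per gene without normalization. A sheet of the authors' own comparisons was not used. Symbols came from GENCODE vM21 (42548 genes). Since strand was not used, reads of a gene and of an antisense partner cannot be told apart. Reads that lie in both of them, or are common to near copies, may be uncounted.

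Libraries were grouped by column names, which give the group but not the animal. Each pairwise comparison used the quasi-likelihood test of edgeR 4.0.16 ( TMM scaling, filterByExpr on both groups, Benjamini-Hochberg adjustment over all tested genes, threshold 0.1) in R 4.3.3, and responses were compared as contrasts in 1 fit over the 6 groups. CPM used TMM-scaled library sizes over all libraries. Windows of 100 bases and motifs were counted on GENCODE vM21 transcripts and RefSeq promoters with Python 3.11.15, pandas 2.3.3 and numpy 2.4.6, and figures were drawn with matplotlib 3.10.9. The floor for a gene at 0 was 3 counts and covers counting error only. Alternatives were DESeq2 1.42.0, scaling by RLE, testing unfiltered genes, fitting the 6 groups jointly, dropping single libraries one at a time, leaving out 5 libraries with over 5% of counts on Gm42418, and an offset for GC content and transcript length. The tests were tried on simulated data.

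Members, lists and tests were chosen with earlier results of these data known. Genes were named by a rule: every member called in any comparison, the 4 highest per kilobase in each class, and the 4 smallest p in each comparison, with up to 4 of each companion list. Hist1h2al and Hist2h2ac are followed in every comparison between origins, a choice made after their values were seen. The labels name Vertis and Beckman Coulter together for library preparation, while the study's methods give preparation to Vertis and sequencing to Beckman Coulter. No batch is given for single samples.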

Additional observations from a re-analysis of the deposited data

Results flagged for a closer look

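For the 10 called genes, the 5 class sums and the sum over all histone genes, each group of 4 or 8 libraries was searched for a library far from the others, by the gap to its nearest neighbour over the group's range. This was done in 80 groups, and chance alone flags about 1 in 20. In exGF-SI Hist1h2al was at 14.7 CPM in exGF-S7, where the nearest library was at 1.76, and Hist2h2ac was at 5.42 CPM in the same library, where the nearest was at 2.99. Hist1h2bg was at 6.45 CPM in exGF-S10, below the nearest library at 8.87. The H1 sum was 148 CPM in exGF-S8, above the nearest at 98.2. In GF the H2B sum was 50.4 CPM in GF-P4, below the nearest library at 63.0.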

How the results depend on the processing

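No paired analysis was possible because the count columns give the group but not the replicate numbers of the labels. Counts of called histone genes that moved by over 1.5 times, or to or from 0, are given by setting. Smaller moves were 3 (not 2) in GF-SI against GF, 3 (not 4) in exGF-SI against exGF and 3 (not 4) in GF-SI against CON-SI without a filter on low counts, 5 and 6 (not 4) in exGF-SI against exGF in 1 fit over the 6 groups and by DESeq2, and 3 (not 4) in GF-SI against CON-SI with the offset. Over all genes the calls were, in that order, 1502 of 27409, 722 of 26717, 117 of 28039, 1401 of 16111, 1643 of 26715 and 149 of 15078. Without a filter on low counts 2 of 56 histone genes were called in GF against CON, 2 of 56 in exGF against CON and 3 of 57 in exGF against GF. The reported counts there are 1, 1 and 0. Over all genes 205 of 25937, 84 of 25490 and 80 of 25902 were called. In 1 fit over the 6 groups, with 42 histone genes tested, the histone counts were 0 in GF against CON, 0 in exGF against CON, 4 (not 2) in GF-SI against GF, 10 (not 4) in GF-SI against CON-SI and 4 (not 1) in exGF-SI against CON-SI. Of all 16111 genes 58, 9, 2503, 561 and 522 were called, in that order. DESeq2 called 2 of 56 in GF against CON (155 of 25925 over all genes), 2 of 56 in exGF against CON (60 of 25490) and 3 of 57 in exGF against GF (72 of 25888). It called 1 of 57 in CON-SI against CON (962 of 26951) and 4 of 58 in GF-SI against GF (2486 of 27389). It called 9 of 57 in GF-SI against CON-SI (521 of 28039) and 6 of 57 in exGF-SI against CON-SI (558 of 27696). In the difference of responses between GF and CON it called 1 of 58 (495 of 29592). The offset for GC content and length gave 1 of 39 in CON-SI against CON, 4 of 39 in GF-SI against GF and 2 of 37 (not 4) in exGF-SI against exGF. Over all genes it gave 661 of 15220, 2095 of 15443 and 626 of 15264. Without the libraries rich in Gm42418 there were 0 of 40 in exGF-SI against exGF (155 of 15854 over all genes) and 3 of 39 in exGF-SI against CON-SI (200 of 15068). RLE scaling moved none of the 12 counts. The cause of these changes was not tested.

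With each library left out in turn the counts ranged from 0 to 1 in GF against CON (0 without CON-P2 or GF-P1), from 1 to 2 in exGF against CON (2 without CON-P3), from 0 to 1 in exGF against GF (1 without exGF-P4), from 0 to 1 in CON-SI against CON (1 without CON-S12), and from 0 to 6 in GF-SI against GF (0 without GF-P3, 1 without GF-P1, 4 without GF-S8 and 6 without GF-P4). They ranged from 1 to 5 in exGF-SI against exGF (1 without exGF-P3, 2 without exGF-P2 or exGF-P4), from 2 to 9 in GF-SI against CON-SI (9 without CON-S7, 7 without GF-S9, and 2 without any of CON-S3, CON-S5, CON-S10, CON-S11, GF-S3, GF-S4, GF-S6, GF-S7, GF-S10 or GF-S11), from 1 to 3 in exGF-SI against CON-SI (3 without CON-S12 or exGF-S7, 2 without CON-S7) and from 0 to 1 in exGF-SI against GF-SI (1 without exGF-S5). Calls over all genes are not given beside these counts, so they cannot be read against the background. Hist1h2al in exGF-SI against GF-SI turned from 0.79 to -1.11 on the log2 scale without exGF-S7, and ranged from -1.11 to 0.998 with single libraries left out. Of the values of single genes under all alternatives 777 kept their direction and side of the threshold, 56 lost a call, 37 gained one and 2 changed sign. Depth limits the genes with few counts: 25 of the 67 could be tested in no fit.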
